A study of Mus musculus with 4 samples.

Results

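The regions described here are binding sites of the glucocorticoid receptor (GR) that lie far from genes: peaks whose centre is more than 200 kb outside the span of every protein-coding gene on chromosomes 1 to 19 and X (RefSeq, GRCm38/mm10). Of 5637 peaks listed after 1 h of corticosterone, 477 met this rule, which is 8.46% (95% Wilson interval 7.76 to 9.22). Of 2883 peaks listed after 12 h, 281 did, which is 9.75% (8.72 to 10.9). One further peak of the 1 h list lay on another chromosome and was not used. Many of these sites are not far from non-coding genes: the centre lay inside the span of a long non-coding RNA gene (lncRNA) at 65 of the 477 and 44 of the 281. Only 36 and 23 sites stayed more than 200 kb from every annotated gene when non-coding genes and pseudogenes were counted too. The sites are therefore called far sites below, in the sense of far from protein-coding genes.

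The receptor was mapped by ChIP-seq, in which DNA bound by a protein is recovered with antibodies and sequenced, in 33AP1C9 cells, a derivative of the mouse mammary epithelial line C127 with stably integrated copies of a hormone-responsive viral promoter reporter (MMTV-pp7) and a GFP-tagged PP7 coat protein that binds the reporter RNA. All cells spent 48 hours in charcoal-stripped serum, which removes steroids, and then received no hormone or 600 nM corticosterone, the main glucocorticoid of rodents, for 1 h or 12 h. There was 1 library per condition, of 79203826 tags (untreated), 90556119 tags (1 h) and 97749688 tags (12 h). No test between conditions is possible with 1 library each. Below, intervals of single-site ratios cover counting error of the tags, and those of shares, differences and medians treat sites as draws. All of them compare these libraries and not the treatments. The labels give a different catalogue number for an antibody of the cocktail in each sample, and whether the antibodies themselves differed is not known; if they did, antibody and treatment time cannot be told apart.

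GR is a nuclear receptor that moves onto DNA when it binds hormone. It recognises an inverted repeat of a short sequence, and most of its binding lies in enhancers away from gene starts, often at sites already opened by other factors such as AP-1. Enhancers can act over long distances through looping of the chromatin, so the nearest gene is named here for position and not as a target.

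Among the far sites, 5 of the 1 h list and 3 of the 12 h list overlapped the start window of an annotated gene, taken as 250 bases before to 50 bases after the start (RefSeq, GRCm38.p6), and each of these genes was a lncRNA. These are 1.05% and 1.07% of far sites, against 1.65% and 1.81% of nearer sites. Sequences are shown for some of them because no reference sequence was used for other far sites. The stretch common to the 1 h peak and the start window, on the strand of the transcript, is printed in lower case for 3 of them, chosen because they held a motif. Capitals mark ACANNNTGT, the core of the GR response element, and TGANTCA, a pattern for the AP-1 element with any base in its middle. Each pattern reads the same on both strands.

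Mir100hg: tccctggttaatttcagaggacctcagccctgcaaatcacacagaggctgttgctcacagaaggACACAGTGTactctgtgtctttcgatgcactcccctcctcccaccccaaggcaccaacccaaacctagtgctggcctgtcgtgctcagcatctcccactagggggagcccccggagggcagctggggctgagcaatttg
Gm8883: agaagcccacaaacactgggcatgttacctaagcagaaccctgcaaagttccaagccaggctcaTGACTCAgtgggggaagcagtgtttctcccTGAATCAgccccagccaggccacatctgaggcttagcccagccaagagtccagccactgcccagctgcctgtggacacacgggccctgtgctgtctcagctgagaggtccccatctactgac
Gm14062: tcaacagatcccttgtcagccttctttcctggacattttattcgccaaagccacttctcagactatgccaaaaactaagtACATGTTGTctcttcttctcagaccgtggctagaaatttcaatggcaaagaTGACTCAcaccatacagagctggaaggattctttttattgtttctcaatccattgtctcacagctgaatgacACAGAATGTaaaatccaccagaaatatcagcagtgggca

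The first stretch starts at the upstream end of the start window of Mir100hg, the host gene of the microRNA genes Mir100, Mirlet7a-2 and Mir125b-1. Its peak at chr9:41474563-41474845 had its centre 189 bases upstream of the start and 313 kb from Ubash3b, the nearest protein-coding gene. It carried 62.9 normalised tags (tags per library of 10000000) at 1 h and 19.8 at 12 h, a log2 ratio of -1.67 (95% exact binomial interval -1.91 to -1.43). Mir100, Mirlet7a-2 and Mir125b-1 start 56.7, 62.0 and 107 kb away from this site. The Gm8883 site at chr1:71887946-71888228, between Fn1, which encodes fibronectin, and Mreg, was weak at both times, with 13.8 tags (1 h) and 11.3 tags (12 h), and the interval of its log2 ratio held 0 (-0.68 to 0.09). The sites at Gm14062 (chr2:137876840-137877122, 11.2 tags) and Gm13470 (chr2:46443064-46443346, 16.5 tags) were listed at 1 h only.

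The full response element, which is the core with AGA before it and TCT after it, was in none of the stretches at Mir100hg, Gm8883, Gm14062 and Gm13470, and it occurs in 3 of 32851 start windows (0.00913%). Among these 4 stretches, the core ACANNNTGT occurred 1 time in the Mir100hg stretch and 2 times in the Gm14062 stretch. The same part of all start windows holds it in 4.86% and 5.68% of cases. The AP-1 pattern TGANTCA occurred 2 times in the Gm8883 stretch, as TGACTCA and as TGAATCA, and 1 time in the Gm14062 stretch, as TGACTCA. The same part of all start windows held a match in 5.77% and 6.64% of cases. These matches describe the letters in these windows only.

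Far from genes, GR sites were sparse. Bases more than 200 kb from every protein-coding gene made up 516 Mb, or 19.9% of the 2600 Mb between the first and last protein-coding gene of each chromosome, in 809 gene-free intervals longer than 400 kb. They held 0.924 sites per Mb at 1 h and 0.544 at 12 h, against 2.48 and 1.25 per Mb in the remaining bases. Density was lower in each successive class beyond 25 kb at both times. At 1 h it was 2.81 sites per Mb within 25 kb of a gene, 2.66 from 25 to 100 kb, 2.06 from 100 to 200 kb, 1.30 from 200 to 500 kb and 0.460 beyond 500 kb. At 12 h the density in these classes was 1.46, 1.40, 1.09, 0.748 and 0.291 per Mb. Bases were not filtered for mappability, whose part in the densities was not tested.

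**Figure D1:**
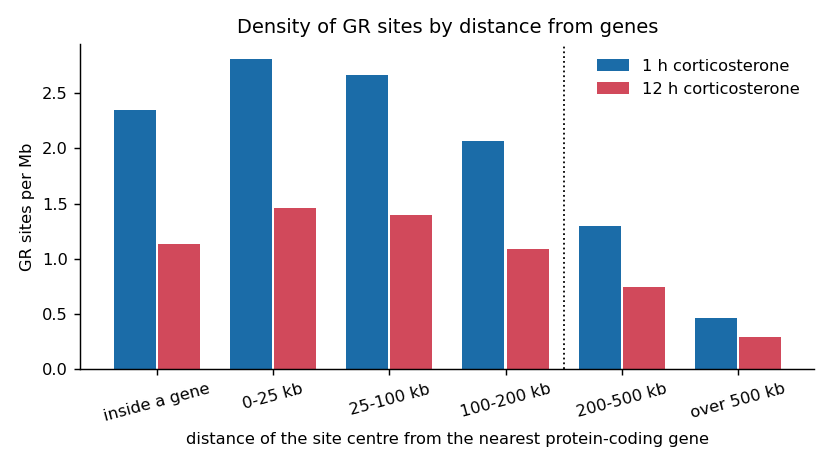
GR sites per Mb (vertical axis) by distance of the site centre from the nearest protein-coding gene (horizontal axis), with blue bars for 1 h and red bars for 12 h of corticosterone, 1 library each; the dotted line marks the 200 kb limit. From 25 kb outwards the bars fall to 0.460 (1 h) and 0.291 (12 h) sites per Mb beyond 500 kb.

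The median distance of a far site to the nearest gene was 331 kb at 1 h and 321 kb at 12 h. Beyond 500 kb there were 106 and 67 sites, and beyond 1000 kb there were 23 and 12. Chromosome 13 held the most, with 48 far sites at 1 h and 36 at 12 h. Per Mb of far bases, chromosome 19 was highest with 3.32 and 2.02 sites, and the X chromosome was lowest with 0.267 and 0.107. The untreated library had a mean of 13.2 tags at the far 1 h sites of chromosome 19 and 7.20 at those of the X chromosome; the part of this difference in the densities was not tested.

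The 3 sites of each list next to the 200 kb limit on either side had from 10.3 to 38.1 tags. Just inside it, the nearest site of both lists lay 200.4 kb from Atp10a, a phospholipid flippase gene, with 14.5 tags at 1 h and 15.3 at 12 h. Just outside it, the nearest 1 h site lay 199.9 kb from C1d with 24.2 tags, and the nearest 12 h site 198.9 kb from Ndn with 38.1 tags. The Ndn site had 16.7 tags at 1 h, and its log2 ratio of 12 h over 1 h was 1.19 (0.91 to 1.47), above that of any shared far site. The other inside sites had 10.3 and 12.1 tags at 1 h and 14.0 and 11.9 at 12 h. All inside sites were thus under the far medians of 18.7 (1 h) and 18.1 (12 h). The other outside sites were weaker than those named, with 14.9 and 20.3 tags at 1 h and 16.9 and 16.1 at 12 h.

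Far sites were about as strong as other sites. The median at 1 h was 18.7 normalised tags (95% interval 17.1 to 20.1) for far sites and 18.3 (17.9 to 18.8) for the 5160 nearer sites. At 12 h it was 18.1 (16.4 to 20.6) against 17.9 (17.4 to 18.6) for 2602 nearer sites. The intervals overlapped at both times. Intervals of medians treat sites as independent draws, although sites of a cluster share their surroundings.

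Other deposited measures were also close. The median fold over the untreated library, which the caller required to reach 6, was 13.5 for far and 14.3 for nearer sites at 1 h, and 12.96 against 12.44 at 12 h. The median fold over the surrounding 10 kb was 11.2 against 11.5 at 1 h and 10.5 against 10.7 at 12 h. The untreated library held a median of 11 tags in the 1 h windows of far and of nearer sites, and 12 tags in the 12 h windows of both. Far sites were 46 of the 564 highest-scoring 10% of the 1 h list (8.16%) and 23 of the 289 at 12 h (7.96%), near their share of the whole lists.

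The range of the far sites was wide. At 1 h they ran from 7.95 to 296.7 tags, with 61 at 50 or more and 14 at 100 or more. At 12 h they ran from 7.06 to 218.7, with 30 and 5. The highest nearer sites reached 432.9 and 442.8 tags.

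The strongest far site at both times lay at chr4:5130823-5131105, 338 kb from Bpnt2, which encodes a phosphatase of the Golgi. It had 296.7 tags at 1 h and 218.7 at 12 h, with 29 untreated tags in the 1 h window. Second came chr3:52601053-52601335, 251 kb from Foxo1, a forkhead transcription factor held back by insulin signalling, with 253.0 tags at 1 h and 147.2 at 12 h. Their log2 ratios were -0.44 (-0.52 to -0.36) and -0.78 (-0.88 to -0.69), so that both kept their place while losing signal.

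Other strong sites of the 1 h list lost far more. The site at chr16:55553910-55554192 lay inside the lncRNA gene Gm45968, between Zpld1 and Nfkbiz, a nuclear regulator of NF-kappa-B, and went from 197.4 to 39.5 tags, a log2 ratio of -2.32. The site at chr1:184291141-184291423, 216 kb from Dusp10, a phosphatase of stress-activated MAP kinases, went from 141.8 to 32.0 tags, or 4.43-fold lower. The site at chr5:126538207-126538489 between Gm4868 and Tmem132c, 688 kb from the nearer of them, went from 133.7 to 40.9 tags, or 3.27-fold lower. A site 919 kb from Cited2, a transcriptional co-regulator, went from 137.3 to 54.8 tags, or 2.50-fold lower. The counting intervals of these 4 ratios were far from 0 on the log2 scale, the closest bound being -1.18 near Cited2.

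A further group of strong sites was nearly level. The site at chr4:64595092-64595374 between Tnc, which encodes the matrix protein tenascin-C, and Pappa, a protease of growth factor binding proteins, had 120.1 tags (1 h) and 122.6 tags (12 h), and the interval of its log2 ratio of 0.03 held 0 (-0.09 to 0.15). The site 257 kb from Klf6, a zinc finger transcription factor, had 95.3 and 95.4 tags (0.00, -0.13 to 0.14).

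Further sites among the 10 strongest of either list were lower at 12 h. They lay near Cryba4 (146.2 and 95.3 tags), Atp6ap1l (122.7 and 60.2), Ostf1 (116.7 and 79.4), Diras2 (109.3 and 96.0) and Myc (93.4 and 79.3), and their intervals were all below 0.

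Far sites were shared between the lists slightly differently from nearer sites, with overlap of at least 1 bp. Of the 477 far 1 h sites, 225 were also listed at 12 h, which is 47.2% (42.7 to 51.7), where 43.2% of all 1 h peaks were. Of the nearer sites 42.8% were listed (41.5 to 44.2). The difference was 4.32 percentage points, and its 95% Newcombe interval held 0 (-0.32 to 9.003). The listed share went up with strength, from 20.4% of far sites in the lowest of 10 score groups to 97.8% in the highest. With nearer sites weighted to the scores of the far sites, the difference was 4.70 points (0.73 to 8.67). Far sites had the higher share in 8 of 10 score groups. Against sites outside genes within 200 kb, of which 44.4% were listed, the unweighted difference was 2.77 points (-2.05 to 7.62). Without chromosome 13 the unweighted difference from all nearer sites was 2.85 points (-2.01 to 7.78). Both of these intervals held 0.

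From the 12 h side the difference had the opposite sign. The same 225 sites are 80.1% (75.01 to 84.3) of the 281 far 12 h sites, where 84.5% of all 12 h peaks were listed at 1 h, and the share of nearer sites was 85.0% (83.5 to 86.3). The difference was -4.90 points (-10.1 to -0.42), or -5.50 (-9.97 to -1.04) with the weighting, and far sites had the higher share in 2 of 10 score groups. The interval held 0 when the list was limited to peaks that reached 2 times all minimums of the caller (-7.78 to 0.16), when sharing meant centres within 100 bp (-8.87 to 1.25) and when far meant over 500 kb (-16.8 to 2.62). With non-coding genes and pseudogenes counted as genes, which left 23 far 12 h sites, the difference turned to 2.48 points (-16.6 to 11.1).

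**Figure D2:**
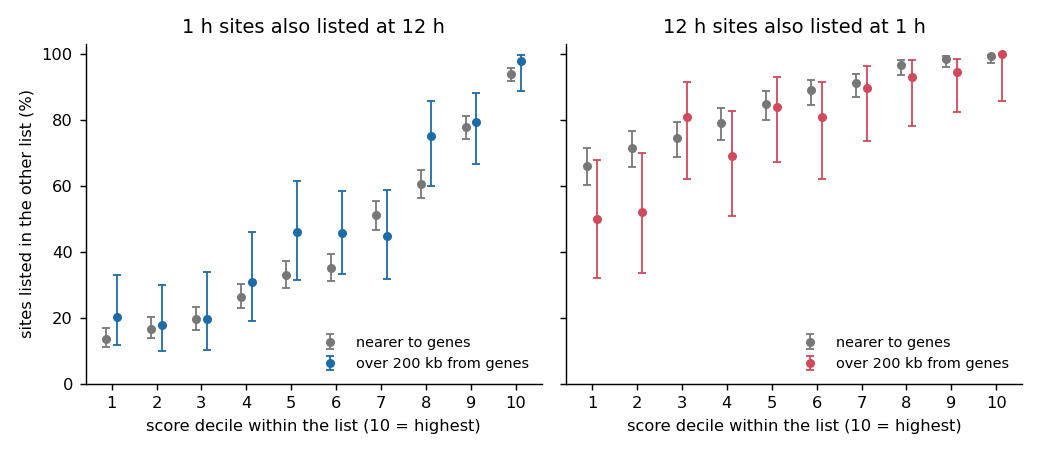
Percent of sites also listed at the other time (vertical axis) by score decile of the list (horizontal axis, 10 being the highest), with 95% Wilson intervals; grey is nearer to genes, blue (1 h) and red (12 h) are far sites. Far points are above grey in 8 of 10 deciles at 1 h and in 2 of 10 at 12 h, with wide intervals.

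Counted the other way, far sites made up 9.24% of the 2436 shared sites, 7.87% of the 3201 sites of the 1 h list only and 12.5% of the 447 sites of the 12 h list only. The last 2 shares differed by 4.66 points (1.73 to 8.16).

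At the 225 shared far sites, 12 h tags were lower than 1 h tags by less than at nearer sites. The median log2 ratio of 12 h over 1 h was -0.35 (-0.43 to -0.24), a level of 0.784-fold, against -0.51 (-0.55 to -0.48), or 0.700-fold, at 2211 nearer sites. The windows of the 12 h list are 302 bp wide and those of the 1 h list 282 bp, and per base of window the medians were -0.45 and -0.61. With 1 median for each of the 141 gene-free intervals that held a shared far site, the median was -0.38 (-0.55 to -0.26), an interval that overlaps that of nearer sites.

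Counts of sites moved the same way. At 12 h, 156 of 225 far sites were lower, which is 69.3% where 77.2% of all shared sites were, and 69 were higher, where 22.8% of all were. The share of lower sites was 8.69 points smaller than at nearer sites (interval of the difference, far minus nearer, -15.2 to -2.76). The counting interval of the ratio lay below 0 at 128 far sites, where it did so at 61.8% of all shared sites, and above 0 at 36 far sites, where it did so at 11.5%. The 36 are 16.0% of far sites, against 10.99% of nearer sites, a difference of 5.01 points (0.58 to 10.5).

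The share of large differences could not be told apart from that of nearer sites. At 50 far sites (22.2%) the 12 h tags were 2-fold or more lower, as they were at 24.5% of all shared sites, and the difference from nearer sites was -2.47 points (-7.74 to 3.66). At 5 far sites (2.22%) they were 2-fold or more higher, as they were at 1.44% of all shared sites.

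The higher ratio held across signal strength. With shared sites split into 4 equal groups by their mean tags, the median log2 ratio was higher at far sites in 4 of 4: -0.13 against -0.27 in the weakest group, -0.38 against -0.52, -0.48 against -0.67, and -0.42 against -0.63 in the strongest. The intervals of the far and nearer medians overlapped within each group.

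**Figure D3:**
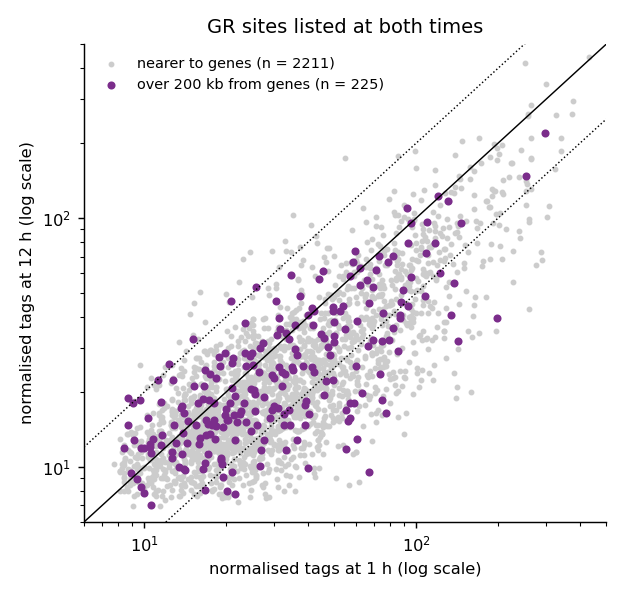
Normalised tags at 1 h (horizontal axis, log scale) and at 12 h (vertical axis, log scale) for the 2211 nearer (grey) and 225 far (purple) sites listed at both times; the solid line is equality and the dotted lines are 2-fold differences. Most purple points, 156, lie under the solid line and 5 lie on or above the upper dotted line.

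By distance class, the median log2 ratio was -0.53 inside genes, -0.53 within 25 kb, -0.51 from 25 to 100 kb and -0.39 from 100 to 200 kb. It was -0.37 at 172 far sites from 200 to 500 kb and -0.21 at 53 sites beyond 500 kb, where the interval was wide and held 0 (-0.45 to 0.10).

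**Figure D4:**
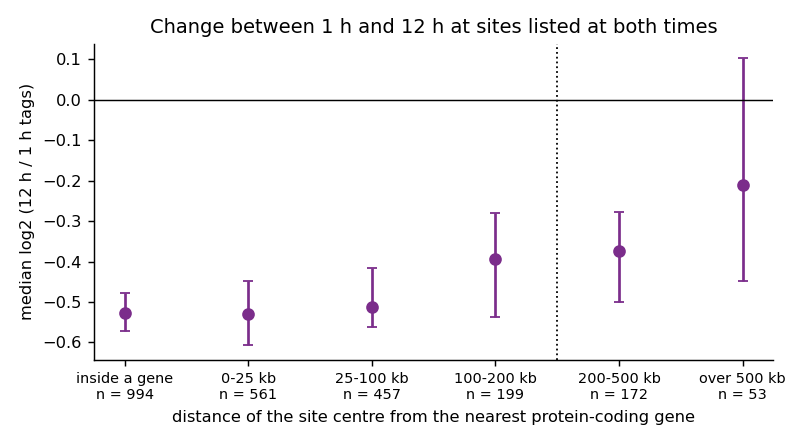
Median log2 ratio of 12 h over 1 h tags (vertical axis) at shared sites by distance from the nearest protein-coding gene (horizontal axis), with 95% order-statistic intervals and the number of sites; the dotted line marks 200 kb. The median goes from -0.53 inside genes to -0.21 beyond 500 kb, and neighbouring intervals overlap.

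The lowest ratio among far sites was at chr12:28002082-28002364 in the lncRNA gene Gm31025, between Sox11, a developmental transcription factor, and Dcdc2c, with 66.8 tags at 1 h and 9.51 at 12 h (7.02-fold lower). After the Zpld1 site came 1 site between Celf2 and Gata3, the latter a transcription factor of the mammary luminal lineage, with 77.3 and 16.4 tags (4.72-fold lower). The site between Npvf and Gm38821 had 60.7 and 12.9 tags, and that between Olfm4 and the protocadherin gene Pcdh17 had 55.1 and 11.8. These 4 sites were all above the 1 h median of far sites and below their 12 h median.

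The highest ratio was at chr4:10398184-10398466, 476 kb from 2610301B20Rik on one side and 536 kb from Gdf6, a bone morphogenetic protein family member, on the other, with 20.8 tags at 1 h and 46.6 at 12 h (2.25-fold higher). Next were sites near Slitrk2, a neuronal adhesion gene on the X chromosome (8.72 and 18.9 tags), Cited2 (15.1 and 32.6), Hdgfl1 (12.3 and 26) and N6amt1, a methyltransferase gene (25.8 and 52.6). The intervals of these 5 log2 ratios lay above 0, the lowest bound being 0.73. Ratios in both directions were ranked on the same tags that give them, so their sizes are descriptions.

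Of the far sites with no partner in the other list, 252 were listed at 1 h only and 56 at 12 h only, with medians of 14.0 and 12.8 tags. An unlisted site need not be an empty one, but the tags of the other library at these sites were not available. The fold minimum over the untreated tags in their windows came to a median of 7.58 tags for the sites of the 1 h list only. It was 8.71 for those of the 12 h list only, and a level under it would not be listed. The tag threshold of the caller and its fold minimum over the surrounding 10 kb also applied. These levels do not count them, so a site above the fold minimum could still go unlisted. A site of the other list lay within 1 kb for 11 of the 252 (4.37%) and for 7 of the 56 (12.5%), against 1.19% and 5.63% of unpartnered nearer sites. Within 25 kb there was one for 49 (19.4%) and for 25 (44.6%), against 19.5% and 39.4% of nearer ones. The 95% intervals at 1 kb were 2.45% to 7.65% for far and 0.855% to 1.65% for nearer sites of the 1 h list, and they overlapped for the 12 h list (6.19% to 23.6% and 3.74% to 8.37%).

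Some of the strongest unpartnered sites had a neighbour within 1 kb. The strongest of the 1 h list, between Kif2a and Zswim6 at 62.4 tags, lay 653 bp from a 12 h site of 36.1 tags. The strongest of the 12 h list, between the aggrecan protease gene Adamts5 and N6amt1 at 44.5 tags, lay 387 bp from a 1 h site of 44.0 tags. These pairs count as unshared under the overlap rule although both times have signal within 1 kb.

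Others lay more than 1 kb from any site of the other list. A 1 h site at chr15:50261262-50261544, 393 kb from Trps1, a zinc finger repressor, had 49.0 tags, and the nearest 12 h site lay 162 kb away. A 1 h site between Fn1 and Mreg had 46.9 tags, with the nearest 12 h site 57.5 kb away. Closer neighbours were also seen. A 1 h site near Cryba4 had 56.0 tags and lay 1.02 kb from a 12 h site of 95.3 tags. A 1 h site near Tm4sf1 had 47.5 tags and lay 5.03 kb from a 12 h site of 38.7. A 12 h site near Zpld1 had 24.9 tags and lay 2.54 kb from the 1 h site of 197.4 tags. A 12 h site near Kcnj3, a potassium channel gene, had 27.6 tags and lay 8.15 kb from a 1 h site of 34.7. A 12 h site 669 kb from Myc had 39.3 tags and lay 3.71 kb from a 1 h site of 26.8, with 35 tags in the untreated library and a fold over it of 8.89.

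The 5 sites most distant from genes were weak. The farthest lay 1734 kb from D3Ertd751e, toward Pcdh10, a protocadherin gene, and was listed at both times with 8.72 and 14.7 tags. The next 4, at 1432 to 1711 kb from a gene, had 14.0, 12.6, 8.94 and 11.4 tags at 1 h and were not listed at 12 h. All 5 were under the 1 h median of far sites. Distant sites in general were not weak: the 106 sites beyond 500 kb at 1 h had a median of 17.35 tags (14.4 to 20). Sites 1382 kb from Cited2 and 1127 kb from Gata3 had 78.5 and 77.3 tags at 1 h.

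Far sites were spread over many intervals. Of the 809 gene-free intervals, 226 held a far site at 1 h, 158 at 12 h and 236 at either time. At 1 h, 125 held 1 site and 101 held 2 or more, and 19 intervals with 5 or more held 139 of the 477 sites. Fewer sites were listed at 12 h than at 1 h in 146 intervals and more in 19. The 12 h list was also shorter as a whole, with 2883 peaks against 5637 at 1 h.

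The interval with the most far sites lay between Nmbr, a neuropeptide receptor gene, and Cited2 on chromosome 10. It was 2952 kb long and held 18 sites at 1 h and 16 at 12 h, 12 of them shared. Of the 12, 6 were higher at 12 h, and the median log2 ratio was -0.07. The strongest, 919 kb from Cited2, was the 2.50-fold lower site above, while the site 1382 kb away went from 78.5 to 66.7 tags (log2 ratio -0.24, -0.39 to -0.08). A pair 1178 and 1170 kb away went from 31.4 to 39.7 tags and from 15.1 to 32.6. The sites 1102 and 710 kb away went from 21.2 to 27.3 and from 23.4 to 28.8 tags, and the intervals of these 4 log2 ratios lay above 0. Sites of the interval thus differed in both directions.

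**Figure D5:**
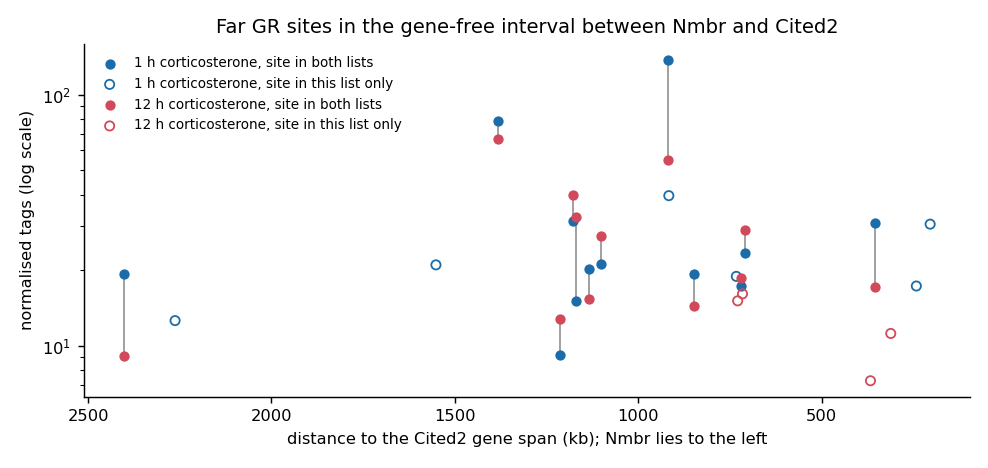
Normalised tags (vertical axis, log scale) of the far sites between Nmbr and Cited2 by distance to the Cited2 gene span (horizontal axis, kb); blue is 1 h, red is 12 h, filled points are listed at both times and joined by a line, open points in 1 list only. Of the 12 joined pairs, 6 have the red point above the blue one.

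The other 4 intervals with most sites differed in their 12 h levels. Between Adamts5 and N6amt1 on chromosome 16 there were 13 sites at 1 h and 9 at 12 h, and the 7 shared ones had a median log2 ratio of -0.07, from -0.59 to 1.02. Between the transcription factor gene Myc and Gsdmc, a gasdermin gene, on chromosome 15 there were 13 and 7, and the 6 shared ones had a median of -0.26. A site there 305 kb from Myc went from 57.2 to 18.1 tags, while a site 338 kb from Myc went from 37.4 to 48.7. Between Zeb2, a zinc finger transcription factor, and the activin receptor gene Acvr2a there were 9 sites at 1 h and 2 at 12 h, the latter from 69.2 to 32.4 and from 32.0 to 21.1 tags. Between Mn1, a transcriptional co-regulator, and Cryba4, a lens crystallin gene, there were 8 and 4, and each of the 4 shared sites was lower at 12 h, with a median of -0.85.

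Another 2 intervals, outside the rule for named sites, were picked after their values were seen. Between Akr1e1 and Klf6 there were 6 sites at 1 h and 7 at 12 h, 5 of them shared, with a median log2 ratio of -0.45 and a highest value of 0.00 at the Klf6 site. Between Agtr1b, an angiotensin receptor gene, and Tbl1xr1, 6 sites of at most 26.6 tags were listed at 1 h and none at 12 h.

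A smaller share of far than of nearer sites had a close neighbour in the 1 h list. Another site of the list lay within 25 kb of 28.9% of far sites and 34.7% of nearer sites, a difference of -5.76 points (-9.86 to -1.34). At 12 h the shares were 25.3% and 25.6% (difference -0.29, -5.31 to 5.34). Far bases held fewer sites per Mb than the remaining bases, 0.924 against 2.48 at 1 h and 0.544 against 1.25 at 12 h. The part of this lower density in the neighbour shares was not tested, so they do not show how clustered far sites are for their density. Inside lncRNA spans lay 13.6% of far 1 h sites and 15.7% of far 12 h sites, while these spans take 8.53% of far bases. For sites outside genes within 200 kb the shares were 17.4% and 16.8%, and the spans take 12.5% of those bases. Gm20125 and Gm38477 each held 3 far 1 h sites, the most of any lncRNA gene.

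The genes that flank these intervals were described with 3 lists. Of 28 genes listed as core glucocorticoid targets, 1 flanked a far site. Of all 21631 protein-coding genes, 2.02% flanked one at 1 h and 1.42% at 12 h. The core target was Sgk1, the serum and glucocorticoid regulated kinase. Its site 272 kb away had 73.4 tags at 1 h and 23.7 at 12 h. Of 60 developmental transcription factor genes, 17 flanked a far 1 h site and 13 a far 12 h site. Of 59 matched adhesion and synapse genes, 24 and 16 did.

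Both of these lists are rich in genes beside long gene-free intervals, which 44 and 47 of them flank, and the shares are better read among such genes. Of all 1425 protein-coding genes beside an interval over 400 kb, 30.6% flanked a far site at 1 h and 21.5% at 12 h. For the transcription factors the shares were 38.6% (25.7 to 53.4) and 29.5% (18.2 to 44.2), whose intervals hold these values. For the adhesion and synapse genes they were 51.1% (37.2 to 64.7) and 34.0% (22.2 to 48.3), whose intervals lie above these values. Genes on either side of an interval share its sites, so genes are not independent here, and nothing particular to the lists is drawn from these shares.

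Among the transcription factor genes, Gata3 flanked the most far sites, 6 at 1 h and 6 at 12 h, with a strongest of 77.3 and 25.5 tags. Nr2f2, an orphan nuclear receptor, had 2 sites at each time, with a strongest of 108.7 and 72.2 tags. Nfib, a nuclear factor I family member, had 1 site of 86.8 and 40.8 tags. Irx1, an Iroquois homeobox gene, had 3 sites at each time, with a strongest of 39.9 and 40.9. Genes with a far site at 1 h only included Sox9 (26 tags) and Id2 (23.7 tags).

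Among the adhesion and synapse genes, Adgrl2, a latrophilin gene, flanked 6 sites at 1 h and 3 at 12 h, with a strongest of 48.1 and 28.2 tags. Flrt2, a leucine-rich repeat adhesion gene, flanked 5 and 4 (49.8 and 33.7 tags), and Pcdh17 4 and 2 (55.1 and 11.8 tags). Unc5d, a netrin receptor gene, flanked 4 and 2 (41.6 and 37.2 tags). At Pcdh10 the strongest site of the 12 h list exceeded that of the 1 h list, with 4 and 3 sites and a strongest of 26.9 tags at 1 h and 38 at 12 h. The single site beside Adgrl3 had 16.7 and 24.6 tags.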

How the data were processed

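The submitters' processing notes name mm10 and the tools bcl2fastq 2.17, Bowtie2 2.2.6 and HOMER. Per the file headers, HOMER findPeaks was run on each treated library with a false discovery rate of 0.001 and a tag threshold of 75. A peak had to reach 6-fold both against its control and against the 10 kb around it, and the untreated ChIP library was the control of both treated lists. Signal is the deposited normalised tag count, scaled to 10000000 tags per library per the file headers. The untreated tags are deposited too. The score, the focus ratio (the fraction of tags near the peak centre) and the ratios (fold over control and over the local region) are the authors' values for each peak and were used to describe or rank peaks within a list.

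Members, lists and named sites were chosen with earlier results of these data known. The rule for named sites took the 10 highest-scoring far sites of each list and the 5 highest-scoring unpartnered. It also took the 3 on either side of the limit, the 5 lowest and highest ratios and the 5 farthest. Last, it took the 5 intervals with most 1 h sites. Some sites under this rule are given by their tags only or are not reported here. Distances use RefSeq gene spans (GRCm38.p6). Shares have Wilson intervals, differences Newcombe intervals, medians binomial order-statistic intervals and ratios Clopper-Pearson intervals (95%). Molecular identifiers are not mentioned in the labels, so reads may not be independent molecules. Ratio intervals cover counting error only, and the other intervals treat sites as independent draws. Python 3.11.15, pandas 2.3.3 and scipy 1.17.1 were used. Calculations were tested on simulated data. A genome sequence, the untreated peak list and the input were not used here, so motifs were counted only in start windows and not in all peaks. Sites of some intervals are not reported here.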

Additional observations from a re-analysis of the deposited data

How the results depend on the processing

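No paired analysis was possible because each condition has 1 library. Of 107 values of the main results under an alternative, 75 were counted as unchanged. For a difference in sharing, unchanged meant the same sign and the same answer on whether its interval held 0. For site numbers it meant a limited change, and for other values a place within the main interval. Of the rest, 25 had moved, 3 differences gained and 3 lost an interval that excluded 0, and 1 changed sign. With far set at over 100 kb there were 935 and 523 far sites (16.6% and 18.1%), and at over 500 kb there were 106 and 67 (1.88% and 2.32%), with a 12 h difference in sharing of -5.52 points, whose interval held 0. With all annotated genes there were 36 and 23 far sites (0.639% and 0.798%). The listed shares were then 55.6% at 1 h and 87.0% at 12 h, the 12 h difference reversed to 2.48 points (-16.6 to 11.1), and the ratio of median strength at 12 h was 0.728. With centres within 100 bp, nearer sites were listed at 41.0% and 81.4%, and the differences were 4.87 points at 1 h, whose interval excluded 0, and -3.46 at 12 h, whose interval did not. With peaks at 2 or more times each minimum, far sites were listed at 82.4% and 96.9% and nearer ones at 74.4% and 99.0%, with differences of 7.97 points (interval above 0) and -2.10 (interval holding 0). Nearer sites outside genes had 44.4% at 1 h. Weighting to score groups gave 4.70 points at 1 h, with an interval above 0. Per base of window, the median log2 ratios were -0.45 (far) and -0.61 (nearer), and with untreated tags subtracted the nearer median was -0.56. The causes were not tested. Leaving out chromosome 13 left the values it touched unchanged in the sense above. So did the alternatives chosen after seeing the data, which left out the Nmbr to Cited2 interval or took 1 median per interval. Counting depth of weak sites and 1 library per condition limit all of these values.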

Other observations

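The site with the highest fold over its surroundings lay far from genes, at chr4:122019946-122020228, 281 kb from Gm10573. It had 40.4 normalised tags at 1 h against 16.3 at 12 h, with a log2 ratio of -1.31 (interval -1.59 to -1.04) and 2 untreated tags. The deposited fold over the local 10 kb was 6306 at 1 h and 5106 at 12 h, where the highest value among nearer sites was 160.8 and 139.1. Its fold over the untreated library was 160.1 and 64.4, under the highest far values of 161.95 and 124.8. A local fold is also high where the surroundings hold few tags, whose part here was not tested. Its focus ratio was 0.997 at 1 h and 0.994 at 12 h, against a far median of 0.840 and 0.833. It was picked after its values were seen.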
